A study of Mus musculus with 12 samples.

Results

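The genes described here encode contractile and actin proteins and are grouped under smooth muscle, though some are also genes of other cell types. They are the muscle actins Acta2, Acta1 and Actg2 and the calponin family proteins Tagln, Cnn1 and Cnn2. The others are the myosin light chain Myl9 and the tropomyosins Tpm1 and Tpm2. All were taken by symbol, 9 of the 23412 genes in the count tables. RNA-Seq counts were compared across 4 genotypes of male v6.5 mouse embryonic stem cells (mESCs), with 3 libraries per genotype. WT mESCs carried no edit. Hmgn1-/- mESCs carried a homozygous single-base deletion in an early exon of Hmgn1, and Hmgn2-/- mESCs a homozygous single-base insertion in an early exon of Hmgn2, both frameshifts. Hmgn1-/-Hmgn2-/- mESCs, the double knockout, came from a second edit, of Hmgn1 in Hmgn2-/- mESCs, and carried both. Each edited line grew from a single isolated cell, so a knockout genotype was represented by 1 clone, and all lines were kept on gelatin in serum with LIF and harvested for RNA after 48 h. The p-values below therefore measure the spread between libraries of a clone, and an effect of the edit and a difference between clones cannot be told apart. Library totals ran from 17337908 to 31448468 counts, and 16311 to 17295 genes had at least 1 count in a library.

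In smooth muscle, actin filaments built on the muscle actins slide against myosin, and phosphorylation of the regulatory light chain switches the motor on. Tropomyosins lie along the filament, calponins and transgelin bind it, and most of these genes are known targets of serum response factor (SRF), which binds the CArG box with cofactors of the myocardin family: myocardin in smooth and cardiac muscle, and the MRTFs, which respond to the pool of free actin, in many other cells. HMGN1 and HMGN2, the proteins lost in these lines, bind nucleosomes in open chromatin.

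The edited genes were read first as a check on the labels. Hmgn1 had 662, 600 and 614 CPM (counts relative to the TMM-scaled library total) in WT replicates 1, 2 and 3. It had 138, 139 and 141 CPM in Hmgn1-/- mESCs, 545, 556 and 640 CPM in Hmgn2-/- mESCs, and 21.5, 19.9 and 21.4 CPM in the double knockout. Hmgn2 had 137, 123 and 120 CPM in WT mESCs, 105, 113 and 109 CPM in Hmgn1-/- mESCs, 50.7, 54.5 and 53.7 CPM in Hmgn2-/- mESCs, and 53.8, 50.5 and 54.2 CPM in the double knockout. Every library edited in Hmgn1 or Hmgn2 had less of that transcript than every library that was not, and the residual Hmgn1 level was lower in the double knockout than in Hmgn1-/- mESCs.

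In WT mESCs the members covered a wide range of levels. Per kilobase of exon, the scale used to compare different genes, Cnn2 was at 45.4 ± 4.27 CPM per kb (SD, n = 3), Tpm1 at 28.5 ± 2.02 and Tagln at 27.7 ± 2.52. The length covers all annotated exons of a gene, 6485 bases for Tpm1, and not only those of the transcripts expressed. A gene with many alternative exons can therefore read too low on this scale. Tpm1 and Tagln did not differ beyond their spread on it. Tpm2 at 10.2 ± 0.568 CPM per kb and Myl9 at 9.21 ± 0.677 (SD, n = 3) came next and did not differ beyond their spread either. Acta1 was at 6.72 ± 1.43 CPM per kb, Acta2 at 4.71 ± 0.842, Cnn1 at 2.13 ± 0.463 and Actg2 at 0.0881 ± 0.0206 (SD, n = 3). The ranges of a SD about Acta1 and Acta2 overlapped, whereas Cnn1 and Actg2 stood below both. By CPM in WT mESCs, without regard to length, Tpm1 ranked 1119 and Actg2 15333 among the 23412 genes.

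The label of these genes was set against the defining genes of smooth muscle. Myh11, the smooth muscle myosin heavy chain, had 0 to 9 counts in every library, and Myocd, which encodes myocardin, had 0 to 3. Kcnmb1, a smooth muscle potassium channel subunit, had 4, 1 and 4 counts in the WT libraries and 0 in all 9 knockout libraries. Mylk, the kinase of the light chain, had 1 to 15 counts. These genes were at or near 0 in every genotype, but others of smooth muscle were not: Smtn, smoothelin, was at 52.9, 41.4, 36.4 and 37.7 CPM and Des, the filament protein desmin, at 20.3, 21.0, 21.5 and 25.1 CPM in WT, Hmgn1-/-, Hmgn2-/- and double knockout mESCs. The members are called below by their symbols. The pluripotency genes were high throughout: Pou5f1, the mESC marker with the most counts, had 1647 to 2167 CPM in the 12 libraries.

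Acta2, alpha smooth muscle actin, had 11.4, 8.20 and 11.4 CPM in WT replicates 1, 2 and 3. It had 1.04, 0.812 and 1.70 CPM in Hmgn1-/- mESCs, 1.42, 0.984 and 1.84 CPM in Hmgn2-/- mESCs, and 0.0960, 0.633 and 0.341 CPM in the double knockout. No knockout library came near a WT library, and the 3 double knockout libraries were the lowest of the 12. These lowest values rested on 3, 14 and 9 counts, against 145 to 364 counts in the WT libraries. A count of 3 was taken as the floor of a library, and the floor covers counting error only. By edgeR, Acta2 fell by a log2 fold change (FC) of −3.14 ± 0.23 (SE) in Hmgn1-/- mESCs (adjusted p = 4.04e-07), −2.91 ± 0.23 in Hmgn2-/- mESCs (adjusted p = 1.76e-05) and −4.96 ± 0.32 in the double knockout (adjusted p = 9.24e-08), each against WT mESCs. In a bulk sample, fewer cells that express a gene and less of its RNA per cell cannot be told apart, here and for every gene below.

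Acta1, alpha skeletal muscle actin, had 8.25, 10.1 and 12.6 CPM in WT mESCs. Its levels were 0.575, 0.525 and 1.51 CPM in Hmgn1-/- mESCs, 1.34, 1.14 and 1.84 CPM in Hmgn2-/- mESCs, and 0.480, 0.768 and 0.910 CPM in the double knockout. All knockout libraries lay below 2 CPM and all WT libraries above 8 CPM. Among the knockouts, the Hmgn2-/- libraries were above those of the double knockout and overlapped with the Hmgn1-/- libraries. Acta1 fell by a log2 FC of −3.57 ± 0.29 in Hmgn1-/- mESCs, −2.86 ± 0.23 in Hmgn2-/- mESCs and −3.86 ± 0.24 (SE) in the double knockout (edgeR, adjusted p = 1.13e-06, 1.77e-05 and 6.19e-08). Actg2, the gamma actin of enteric smooth muscle, had 4, 2 and 5 counts in WT mESCs, 2, 0 and 1 in Hmgn1-/- mESCs, 2, 2 and 1 in Hmgn2-/- mESCs, and 1, 0 and 2 in the double knockout. It did not pass the filter on low counts, so no test was made, and no fold is given at counts this low. Actins are alike in sequence: of the runs of 50 bases in the transcripts, 2.02% for Acta1 and 0.326% for Acta2 also occur in transcripts of other genes, and none for the other 7 members. How the counting treated such reads is not given in the sources used here. The low Acta1 counts in the knockouts are therefore uncertain by the reads that Actb and Actg1 could lend. The low Acta2 counts are likewise uncertain by the reads that Actg1 could lend.

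**Figure D1:**
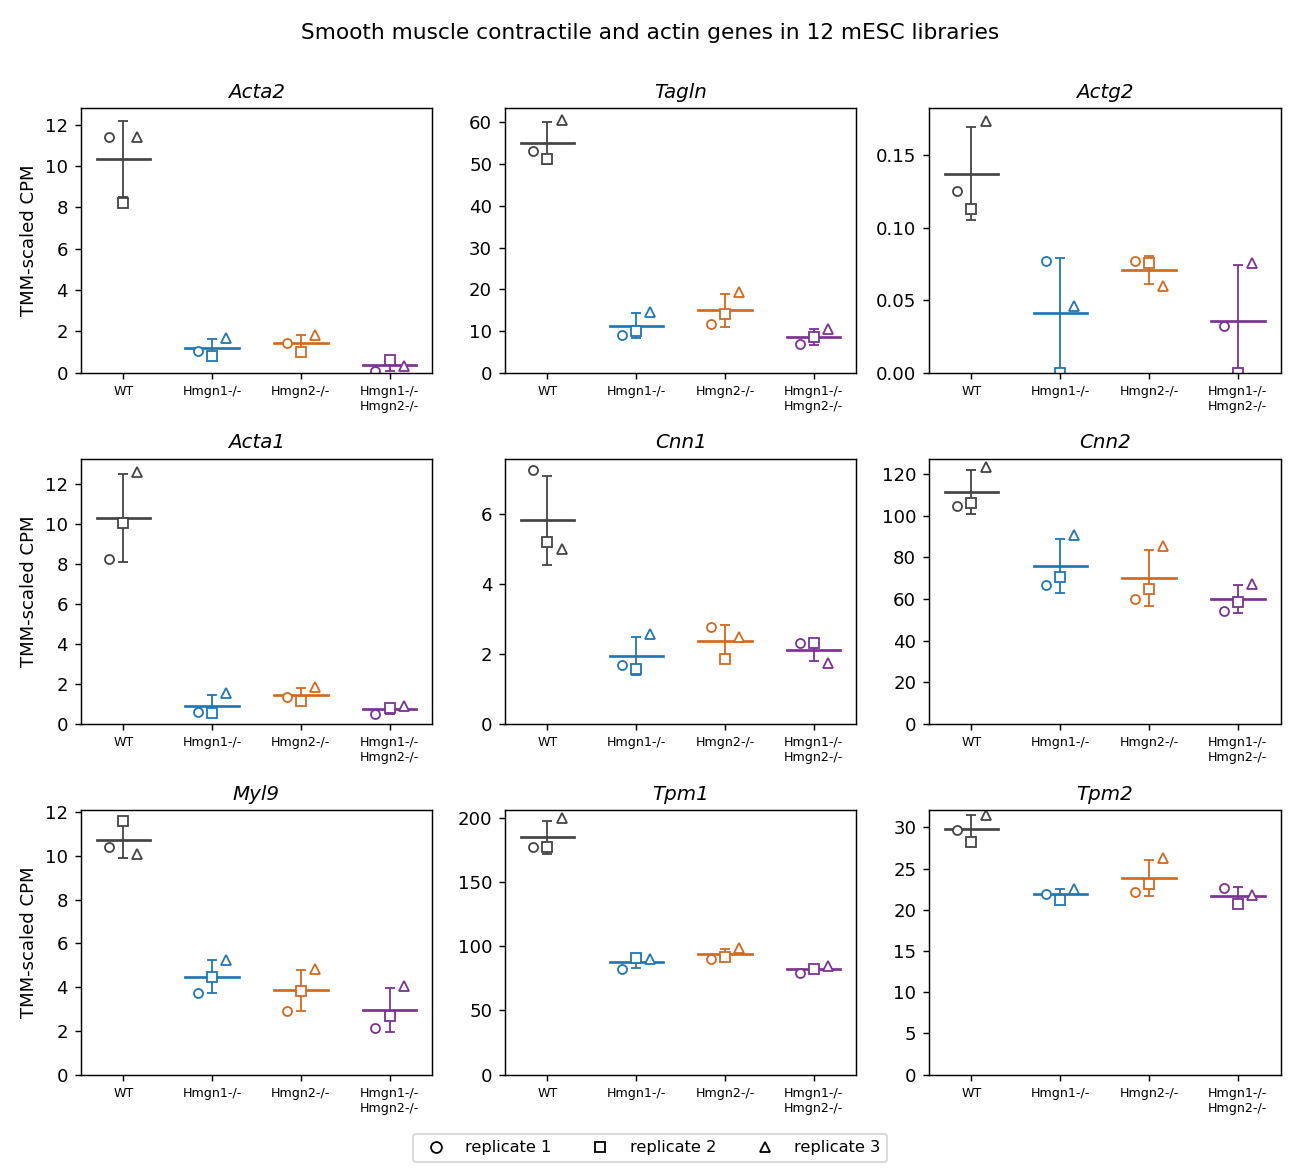
TMM-scaled CPM of the 9 members in each library, a panel per gene, with WT, Hmgn1-/-, Hmgn2-/- and double knockout libraries as points and the mean ± SD (n = 3) as bars. For all 9 genes each knockout library lies below the lowest WT library, by a wide gap for Acta2, Acta1 and Tagln and a narrow gap for Tpm2, and the Actg2 points stand for 0 to 5 counts.

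Tagln, transgelin (SM22 alpha), a small calponin-like protein that binds actin filaments, was the calponin family member with the largest difference. It had 53.1, 51.2 and 60.7 CPM in WT mESCs, 9.13, 10.1 and 14.6 CPM in Hmgn1-/- mESCs, 11.6, 14.0 and 19.3 CPM in Hmgn2-/- mESCs, and 6.78, 8.49 and 10.4 CPM in the double knockout. Replicate 3 was the highest of each genotype. The Hmgn1-/- libraries overlapped with both other knockouts, the Hmgn2-/- and double knockout libraries did not overlap, and no knockout library reached the WT range. By edgeR, Tagln fell by a log2 FC of −2.29 ± 0.14 in Hmgn1-/- mESCs (adjusted p = 8.2e-08), −1.88 ± 0.16 in Hmgn2-/- mESCs (adjusted p = 2.54e-05) and −2.69 ± 0.13 (SE) in the double knockout (adjusted p = 6.19e-09). Tagln overlaps Pcsk7, a gene on the opposite strand, and whether the counting used the strand is not given in the sources used here. Pcsk7, looked at because of this overlap, did not pass the test, with a log2 FC of 0.01 ± 0.09, 0.06 ± 0.11 and 0.09 ± 0.09 (SE) in Hmgn1-/-, Hmgn2-/- and double knockout mESCs (edgeR, adjusted p = 0.975, 0.776 and 0.525).

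Cnn1, basic calponin, which restrains the actomyosin motor, had 7.29, 5.20 and 5.00 CPM in WT mESCs. It had 1.69, 1.58 and 2.57 CPM in Hmgn1-/- mESCs, 2.76, 1.85 and 2.50 CPM in Hmgn2-/- mESCs, and 2.30, 2.30 and 1.75 CPM in the double knockout. The 3 knockouts lay in the same range, below the WT libraries. Cnn1 fell by a log2 FC of −1.59 ± 0.23, −1.30 ± 0.22 and −1.47 ± 0.20 (SE) in Hmgn1-/-, Hmgn2-/- and double knockout mESCs (edgeR, adjusted p = 0.000136, 0.00196 and 0.000111). Without Hmgn2-/- replicate 2, the Hmgn2-/- value was −1.14 and no longer passed. Cnn2, a calponin of many cell types that also binds actin, was at 112 ± 10.5, 76.0 ± 13.0, 70.0 ± 13.5 and 60.0 ± 6.63 CPM (SD, n = 3) in WT, Hmgn1-/-, Hmgn2-/- and double knockout mESCs. Its log2 FC of −0.55 ± 0.10, −0.67 ± 0.13 and −0.89 ± 0.09 (SE) had an adjusted p under 0.01 in all 3 knockouts but stayed under the fold limit (edgeR, adjusted p = 0.00104, 0.00418 and 4.57e-06).

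Myl9, a regulatory light chain of smooth muscle and non-muscle myosin, had 10.4, 11.6 and 10.1 CPM in WT mESCs. It had 3.72, 4.44 and 5.23 CPM in Hmgn1-/- mESCs, 2.92, 3.82 and 4.82 CPM in Hmgn2-/- mESCs, and 2.14, 2.67 and 4.06 CPM in the double knockout. Replicate 3 was the highest library of each knockout and the lowest of WT mESCs, and the knockouts did not reach the WT range. Myl9 fell by a log2 FC of −1.26 ± 0.15, −1.48 ± 0.18 and −1.85 ± 0.19 (SE) in Hmgn1-/-, Hmgn2-/- and double knockout mESCs (edgeR, adjusted p = 2.78e-05, 0.000236 and 8.86e-06).

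Tpm1, a tropomyosin of muscle and non-muscle filaments, had 177, 177 and 200 CPM in WT mESCs. It had 82.3, 90.9 and 89.9 CPM in Hmgn1-/- mESCs, 90.4, 91.9 and 98.8 CPM in Hmgn2-/- mESCs, and 79.5, 82.3 and 84.5 CPM in the double knockout. The WT libraries stood apart, and the spread within each knockout was small. Tpm1 fell by a log2 FC of −1.07 ± 0.07 in Hmgn1-/- mESCs and −1.17 ± 0.06 (SE) in the double knockout (edgeR, adjusted p = 8.82e-08 and 1.95e-08). In Hmgn2-/- mESCs its log2 FC of −0.97 ± 0.08 (edgeR, adjusted p = 2.47e-05) missed the fold limit, and it passed at −1.004 without WT replicate 1 or 2 and at −1.01 without Hmgn2-/- replicate 3. Tpm2, a tropomyosin of slow and smooth muscle, was at 29.8 ± 1.65, 21.9 ± 0.683, 23.8 ± 2.18 and 21.7 ± 0.996 CPM (SD, n = 3) in the same order of genotypes. Its log2 FC of −0.45 ± 0.08, −0.32 ± 0.10 and −0.45 ± 0.08 (SE) stayed under the fold limit in all 3 knockouts (edgeR, adjusted p = 0.00112, 0.0521 and 0.00102).

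Counted over the 8 members that could be tested, 6 were past the threshold and lower in Hmgn1-/- mESCs (adjusted p under 0.01 and a log2 FC of at least 1 in size), where 5.08% of all tested genes were lower and 0.898% higher. In Hmgn2-/- mESCs 5 of 8 were lower, against 4.38% of all genes lower and 0.776% higher. In the double knockout 6 of 8 were lower, against 5.00% of all genes lower and 1.30% higher. No tested member was higher in a knockout, and 8 of 8 were lower at an unadjusted p under 0.05 in each comparison, as were 19.8%, 16.6% and 20.1% of all genes in Hmgn1-/-, Hmgn2-/- and double knockout mESCs. At an adjusted p under 0.01 and any fold, 8, 7 and 8 of the 8 members were lower in Hmgn1-/-, Hmgn2-/- and double knockout mESCs, against 10.1%, 6.66% and 10.2% of all genes. Every knockout library was below every WT library for all 9 members in each of the 3 comparisons, with Actg2 at 0 to 5 counts, and for 21.3%, 19.2% and 21.7% of the tested genes in the same order. The median log2 FC of the 8 tested members was −1.43, −1.39 and −1.66, and that of all tested genes 0.00, 0.01 and 0.00. The 3 comparisons share the WT libraries, so their counts are not independent of each other.

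**Figure D2:**
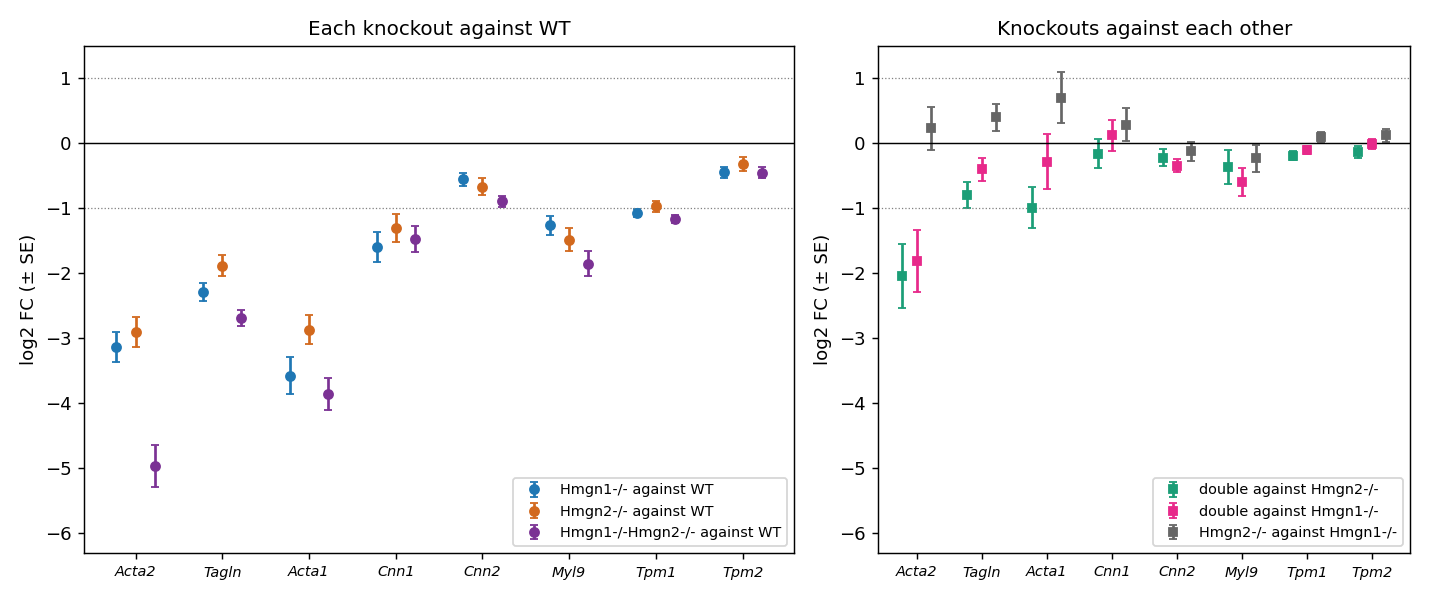
The log2 FC ± SE of the 8 tested members, at the left for each knockout against WT mESCs and at the right for the knockouts against each other, with dotted lines at −1 and 1. Against WT mESCs the points run from −0.32 for Tpm2 to −4.96 for Acta2, and between knockouts all but the Acta2 values of the double knockout lie within 1 of 0.

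As a share of WT levels, Acta2 was at 11.4%, 13.7% and 3.45%, Acta1 at 8.44%, 14.0% and 6.97%, and Tagln at 20.5%, 27.2% and 15.6% in Hmgn1-/-, Hmgn2-/- and double knockout mESCs. Single libraries weigh much in the share of Acta2 in the double knockout, with libraries from 0.0960 to 0.633 CPM. The same holds for Acta1 in Hmgn1-/- mESCs, with libraries from 0.525 to 1.51 CPM. Tpm2 was at 73.3%, 79.9% and 72.9%, and Cnn2 at 68.2%, 62.8% and 53.8%. Acta2, Acta1 and Tagln had the lowest shares in each knockout, and Cnn2 and Tpm2 the highest, though these differences between genes were not tested. Replicate 3 had the highest CPM in 25 of the 32 sets of a tested member and a genotype, whereas over the 11555 genes averaging 50 counts or more it was highest in 34.5% of the sets. Without replicate 3 of every genotype, a choice made after seeing the data, 6, 5 and 6 members were lower in Hmgn1-/-, Hmgn2-/- and double knockout mESCs.

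The knockouts were next compared with each other, to ask whether loss of the second gene lowered the members further. Against Hmgn2-/- mESCs, the double knockout had 0 of 8 members past the threshold by edgeR and 0 by DESeq2, with 4 at an unadjusted p under 0.05 against 4.44% of all genes, and 0.0434% of all genes passed (6 genes, and 32 when libraries were blocked by replicate number). Acta2 had the largest difference there, a log2 FC of −2.04 ± 0.49 (SE; edgeR, adjusted p = 0.287), and Tagln had −0.80 ± 0.21 (adjusted p = 0.361). Against Hmgn1-/- mESCs, the double knockout again had 0 of 8 past the threshold by edgeR and by DESeq2, with 4 at an unadjusted p under 0.05 against 9.53% of all genes, and 0.511% of all genes passed. Here Acta2 had a log2 FC of −1.81 ± 0.48 (SE; edgeR, adjusted p = 0.0872). The Acta2 libraries of the double knockout, at 3 to 14 counts, lay below those of either other knockout, at 17 to 37 counts. Between Hmgn2-/- and Hmgn1-/- mESCs, 0 of 8 members passed by edgeR or DESeq2, 0 had an unadjusted p under 0.05 against 3.20% of all genes, and 0.176% of all genes passed. The median log2 FC of the members was −0.29, −0.31 and 0.18 in the 3 comparisons, in this order, against 0.00 for all genes in each. A difference that misses the threshold is not shown to be absent.

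Whether loss of Hmgn1 had the same effect with and without Hmgn2 was tested as a difference of differences over all 12 libraries: the log2 FC from Hmgn2-/- to double knockout mESCs minus that from WT to Hmgn1-/- mESCs. Of the 8 members, 3 passed and all 3 were positive, against 2.98% of all genes that passed and were positive. The values were 1.498 ± 0.27 for Tagln, 2.59 ± 0.51 for Acta1 and 1.44 ± 0.33 (SE) for Cnn1 (edgeR, adjusted p = 0.0019, 0.00325 and 0.009). For these genes the fall with Hmgn1 loss was smaller where Hmgn2 was already lost than in WT mESCs. A gene about equally low in all 3 knockouts is positive in this contrast, as Cnn1 was, at −1.59, −1.30 and −1.47 against WT mESCs. With 1 clone per knockout, an effect of the background and a difference between clones cannot be told apart. Tpm1 had a difference of 0.88 ± 0.10 (SE; edgeR, adjusted p = 2.74e-05), under the fold limit, so that at any fold 4 of 8 members were positive at an adjusted p under 0.01, against 4.13% of all genes. Acta2 had 1.09 ± 0.60 and Myl9 0.90 ± 0.31 (SE; edgeR, adjusted p = 0.277 and 0.0693), which did not pass. The median over the 8 members was 1.00 and over all genes −0.01. Acta1 stood at 11 to 35 counts in every knockout library, against 178 to 364 in the WT libraries. The call of Acta1 (2.34 to 2.54) was lost without Hmgn1-/- replicate 1 or 2, Hmgn2-/- replicate 2, or double knockout replicate 2 or 3, and each of these omissions left only Tagln past the threshold. Cnn1, whose adjusted p lay near the limit, also lost its call without any WT replicate or without double knockout replicate 1, at 1.23 to 1.56 over all such omissions, and Tagln kept its call without each library.

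Genes of the marker lists moved in the same test. Of 7 tested trophoblast markers 4 passed and were positive, the keratins Krt8, Krt18 and Krt7 and the transcription factor Hand1, at 2.71, 2.41, 2.32 and 2.34 (edgeR, adjusted p = 5.27e-05, 0.000144, 0.000287 and 0.000564), with a list median of 2.32. Of 4 tested fibroblast markers 3 passed and were positive, the surface protein Thy1 and the collagens Col1a1 and Col1a2, at 1.94, 1.495 and 3.23 (edgeR, adjusted p = 5.96e-05, 0.00878 and 0.00469), with a median of 1.72. The Thy1 call was kept without each library, whereas that of Col1a1 (1.26 to 1.65) was lost without any single library other than WT replicate 2, and that of Col1a2 (2.91 to 3.29) without WT replicate 3, Hmgn1-/- replicate 2 or 3, Hmgn2-/- replicate 2, or double knockout replicate 1 or 2. Of 10 other smooth muscle contractile genes tested over the 12 libraries, 2 passed and were positive, with a list median of 0.67. These were Cald1 at 2.13 and Csrp1 at 1.38 (edgeR, adjusted p = 1.24e-05 and 4.8e-05). Of 12 MRTF and SRF targets, Fhl1 passed and was positive, at 1.35 (edgeR, adjusted p = 9.48e-06), with a list median of 0.75. Among these targets Fhl2 (3.25) and Tgfb1i1 (1.46) passed by DESeq2 and not by edgeR, except that by edgeR Tgfb1i1 passed without WT replicate 1 (1.63) and Fhl2 with no filter on low counts (3.24) or with the replicate block (3.28). Most primitive endoderm markers were negative: 6 of 10 passed, at −2.39 for Pdgfra to −1.30 for Gata6, with a median of −1.35, against 0.503% of all genes that passed and were negative. Sox7 (0.53) and Lrp2 (0.85) were positive and did not pass. Gata6 lost its call (−1.34 to −1.14) without WT replicate 1 or 3, Hmgn1-/- replicate 1 or 2, Hmgn2-/- replicate 1 or 2, or double knockout replicate 1 or 3, and Lrp2 (0.85) passed with a positive value without Hmgn2-/- replicate 1 (1.07). In the lists of cytoplasmic actin, SRF, mESC, mural, cardiac and skeletal genes, with 12, 6, 8, 3, 7 and 4 tested, 0 passed by edgeR or DESeq2, 3, 1, 4, 1, 1 and 2 had an unadjusted p under 0.05, and the medians ran from −0.08 to 0.40. The part of the cells that these lists mark in the differences of the members was not tested.

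The members belong to families with abundant non-muscle genes, and those were compared on the scale per kilobase. Acta2, Acta1, Actg2 and Actc1, the cardiac actin, made up 0.678% ± 0.100 (SD, n = 3) of the summed level of the 6 actin genes in WT mESCs, the rest being Actb and Actg1, the cytoplasmic actins. In the knockouts their share was lower, 0.0657% ± 0.0322 with Hmgn1-/-, 0.0992% ± 0.0252 with Hmgn2-/- and 0.0403% ± 0.0143 (SD, n = 3) with both lost. The summed level of the 6 genes was 1733, 1726, 1673 and 1630 CPM per kb in WT, Hmgn1-/-, Hmgn2-/- and double knockout mESCs, so the muscle actins were a small part of actin RNA in every genotype. Actb had a log2 FC of −0.15 ± 0.08, −0.25 ± 0.11 and −0.31 ± 0.08 (SE) in the 3 knockouts (edgeR, adjusted p = 0.201, 0.151 and 0.00992). Actg1 went the other way, at 0.32 ± 0.05, 0.38 ± 0.07 and 0.36 ± 0.05 (SE; edgeR, adjusted p = 0.000434, 0.0046 and 0.000127). None of these values was past the fold limit. Tpm1 and Tpm2 made up 19.6% ± 0.891 of the 4 tropomyosin genes in WT mESCs, and 12.7% ± 0.369, 13.4% ± 0.354 and 11.5% ± 0.199 (SD, n = 3) in Hmgn1-/-, Hmgn2-/- and double knockout mESCs. No library of a knockout reached the WT share in either family.

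**Figure D3:**
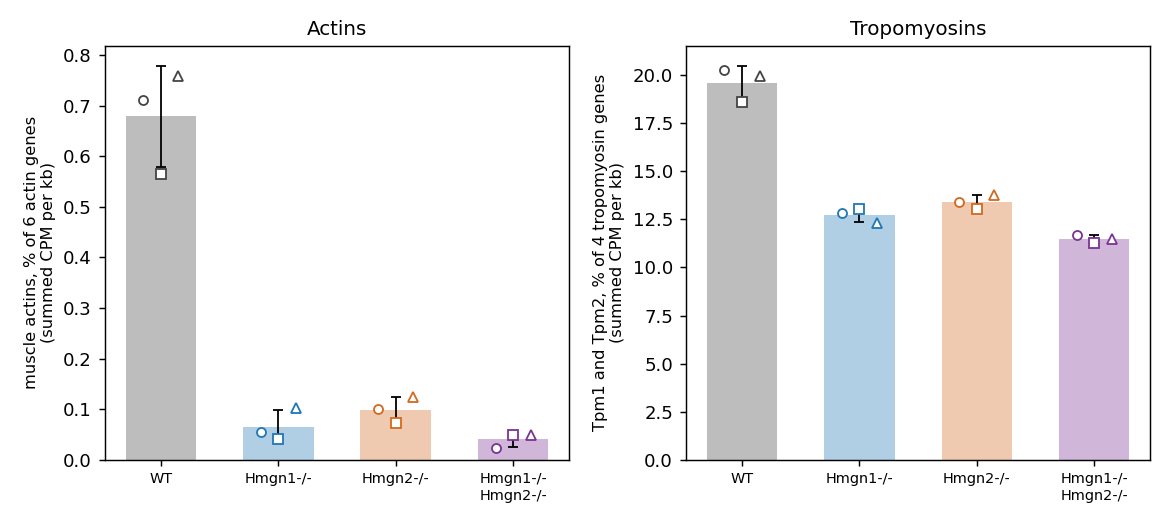
Share, in percent, of the muscle actin genes in the level per kb of 6 actin genes, and of Tpm1 and Tpm2 in that of 4 tropomyosin genes, for each library with the mean ± SD (n = 3). The WT libraries, at 0.566% to 0.758% and 18.6% to 20.2%, lie above all knockout libraries.

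Promoter sequence was read from a RefSeq table of GRCm38.p6, because 6 of the members fell together in Hmgn1-/- and double knockout mESCs. The table held an entry for 7 of the 9 members and none for Tagln and Actg2. The 250 bases before each start site were searched on both strands for the CArG box and for the M-CAT core CATTCC, the element that TEAD factors bind. A full CArG match was present in 3 of the 7 members (Myl9, Acta1 and Cnn2) and in 1.47% of 32851 entries. With at most 1 departure in the central 6 bases it was present in 4 of 7, Acta2 being added, and in 8.59% of entries. CATTCC was present in Acta1, Tpm1 and Acta2, and in 12.6% of entries. A match is a description of letters and not a bound site, and the windows of Cnn1 and Tpm2 held none of these letters. Most of these genes are known SRF targets, so their share of CArG matches does not test a link to the lower levels. Of the members with a full match, Acta1 and Myl9 passed the threshold in all 3 knockouts and Cnn2 in none. Of those with no match, Cnn1 passed in all 3 and Tpm2 in none. The stretches below show the matches in the 4 members that carried a CArG match, with the CArG letters in capitals, read 5′ to 3′ on the strand of the gene. Acta1 at chr8:123894776-123895025 (minus strand) has the full match 73 bases before the start and matches with 1 departure at 205 and 154 bases. Cnn2 at chr10:79988350-79988583 (plus strand) has a full match at 56 bases. Myl9 at chr2:156775214-156775407 (plus strand) has a full match at 161 bases and a match with 1 departure at 99 bases. The Cnn2 stretch ends where the gene starts in GENCODE, and the Myl9 stretch where it starts in the RefSeq gene table. Acta2 is shown only as 30 bases about each of its matches, with 1 departure each, at 84 bases (chr19:34255438-34255467, minus strand) and 34 bases (chr19:34255388-34255417, minus strand), because 217 of its 250 window bases lie in an exon of the GENCODE annotation.
Acta1: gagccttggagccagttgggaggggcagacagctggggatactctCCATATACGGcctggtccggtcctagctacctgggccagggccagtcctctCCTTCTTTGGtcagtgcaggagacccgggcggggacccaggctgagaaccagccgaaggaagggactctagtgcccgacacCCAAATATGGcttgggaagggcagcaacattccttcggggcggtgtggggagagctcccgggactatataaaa
Cnn2: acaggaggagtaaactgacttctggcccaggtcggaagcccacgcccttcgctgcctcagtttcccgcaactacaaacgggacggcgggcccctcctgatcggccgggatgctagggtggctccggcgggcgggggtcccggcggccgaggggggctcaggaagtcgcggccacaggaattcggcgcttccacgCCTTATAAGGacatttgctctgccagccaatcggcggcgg
Myl9: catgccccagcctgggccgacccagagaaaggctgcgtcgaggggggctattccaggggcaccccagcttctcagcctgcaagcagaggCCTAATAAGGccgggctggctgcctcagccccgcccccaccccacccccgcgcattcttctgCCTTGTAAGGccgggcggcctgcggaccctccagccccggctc
Acta2 at 84 bases: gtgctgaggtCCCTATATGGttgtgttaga
Acta2 at 34 bases: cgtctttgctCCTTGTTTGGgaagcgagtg

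**Figure D4:**
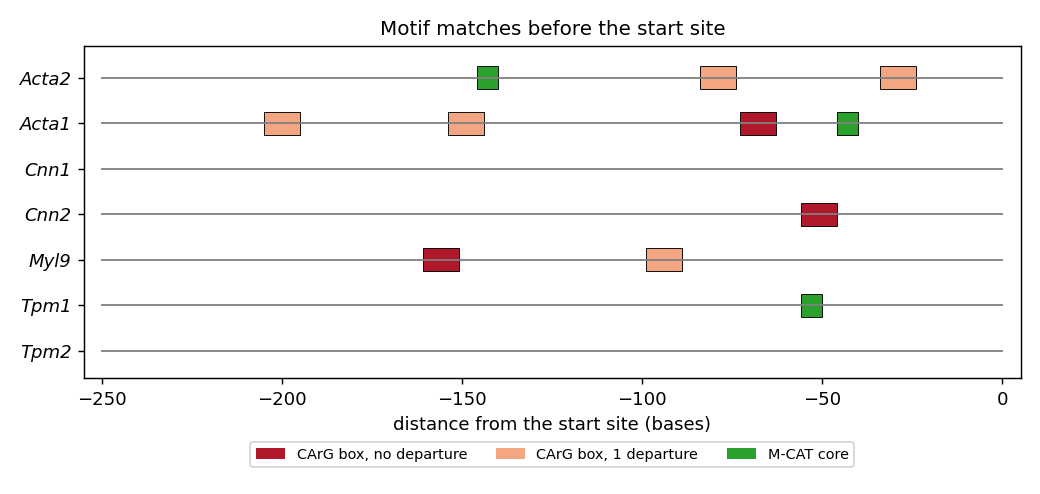
Positions, in bases before the start site, of the CArG box and the M-CAT core in the 250-base windows of the 7 members with a promoter entry. Full CArG matches lie in the windows of Acta1, Cnn2 and Myl9, and CArG matches with 1 departure in those of Acta1, Myl9 and Acta2.

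The proteins that regulate such promoters were examined next. Of 6 tested genes of SRF and its cofactors, 0 passed the threshold in any knockout by edgeR or DESeq2, with 2 at an unadjusted p under 0.05 in each, and the median log2 FC was −0.01, −0.05 and −0.08 in Hmgn1-/-, Hmgn2-/- and double knockout mESCs. Srf itself had 118, 106, 97.4 and 91.0 CPM in WT, Hmgn1-/-, Hmgn2-/- and double knockout mESCs, a log2 FC of −0.14 ± 0.06, −0.26 ± 0.07 and −0.37 ± 0.06 (SE; edgeR, adjusted p = 0.118, 0.029 and 0.000347). Elk1, a cofactor of the ETS family, had −0.47, −0.54 and −0.45 (edgeR, adjusted p = 0.00196, 0.00463 and 0.00184), under the fold limit. Of 12 other genes known as MRTF and SRF targets, 3 were lower in Hmgn1-/- mESCs (Tgfb1i1, Fhl1 and Fhl2), 4 in Hmgn2-/- mESCs (Tgfb1i1, Fhl1, Egr1 and Fos) and 3 in the double knockout (Tgfb1i1, Fhl1 and Fhl2). Their median log2 FC was −0.63, −0.67 and −0.57. The Fos call was lost with any single library of the comparison left out other than Hmgn2-/- replicate 1 (−1.10 to −0.93), with the replicate block (−1.05) and in a single fit (−1.04), and Fos passed in the double knockout without its replicate 3 (−1.06). Fhl1 missed the fold limit in the double knockout without its replicate 1 (−0.93), and Fhl2 passed in Hmgn2-/- mESCs without Hmgn2-/- replicate 3 (−2.51), by DESeq2 (−2.26), with the replicate block (−2.27), in a single fit and with no filter. Fhl2, a LIM protein of muscle, had the largest change of the list, a log2 FC of −3.19 ± 0.42 (SE) in Hmgn1-/- mESCs (edgeR, adjusted p = 7.57e-05). Csrp2, the most abundant of the list in every library, had −0.01, 0.00 and −0.14.

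Of 13 other smooth muscle contractile genes, 9 could be tested and 3 were lower in each knockout: Lmod1, which nucleates actin filaments, Cald1, caldesmon, and Csrp1, a LIM protein. Cald1 had 55.6, 63.7 and 82.2 CPM in WT mESCs, 12.5, 11.6 and 17.1 CPM in Hmgn1-/- mESCs, 17.7, 18.5 and 18.4 CPM in Hmgn2-/- mESCs, and 15.8, 15.1 and 17.6 CPM in the double knockout. The groups did not overlap with WT mESCs, and the log2 FC was −2.29 ± 0.15, −1.88 ± 0.14 and −2.05 ± 0.13 (SE; edgeR, adjusted p = 1.59e-07, 8.71e-06 and 5.36e-08). The median of the list was −0.57, −0.53 and −0.48. The Lmod1 call in Hmgn2-/- mESCs was lost without WT replicate 2 (−2.32) or 3 (−2.29) or Hmgn2-/- replicate 2 (−1.92), and its calls in Hmgn1-/- mESCs (−2.05) and the double knockout (−1.64) without replicate 3 of every genotype. With no filter on low counts, Actc1 was called lower as well in Hmgn1-/- and double knockout mESCs. Of 12 genes of cytoplasmic actin and non-muscle contraction, 0 passed in any knockout by edgeR or DESeq2, 8, 7 and 9 had an unadjusted p under 0.05 in Hmgn1-/-, Hmgn2-/- and double knockout mESCs, and the median was −0.15, −0.19 and −0.16.

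**Figure D5:**
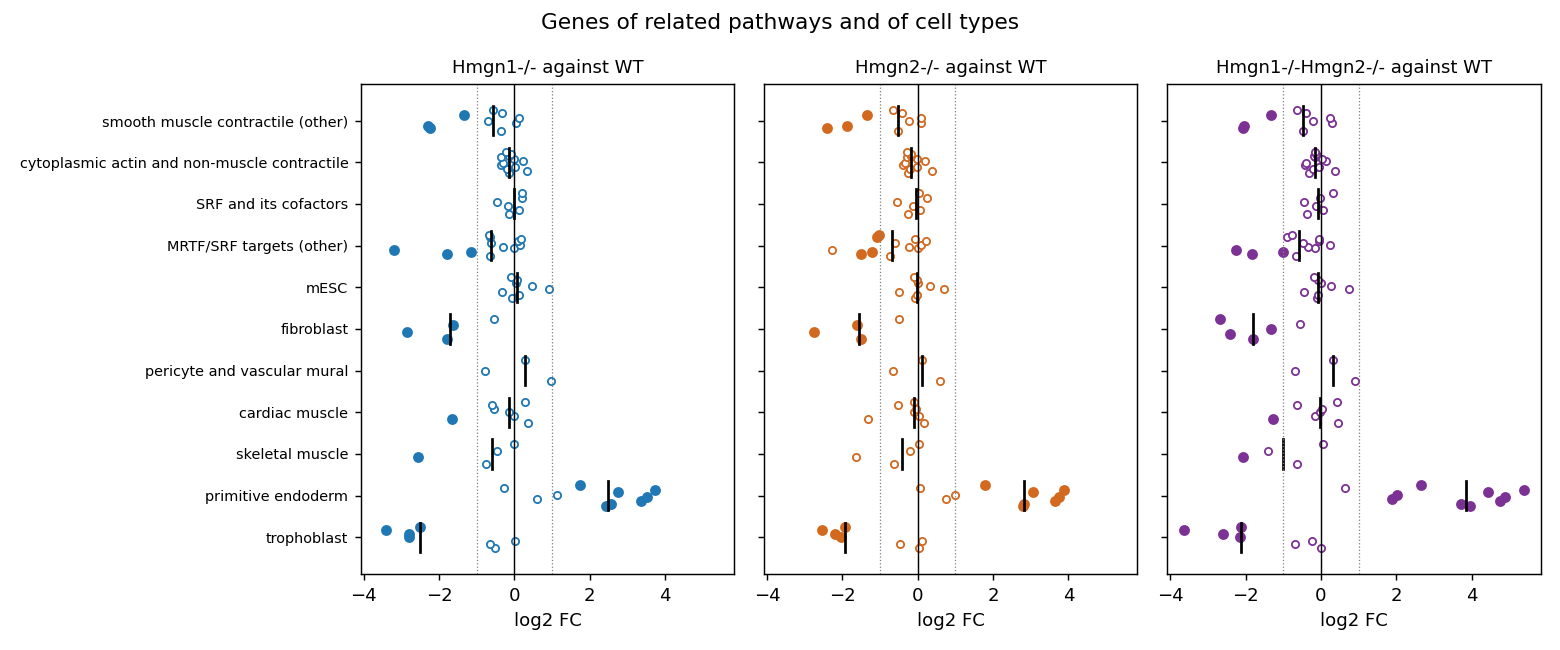
The log2 FC of each tested gene of 11 gene lists in each knockout against WT mESCs, with filled points past the threshold and a black bar at the median of a list. The medians of the fibroblast, trophoblast, smooth muscle, skeletal and MRTF/SRF target genes lie to the lower side. That of the primitive endoderm genes lies to the higher side, and the medians of the genes of SRF and its cofactors and of the mESC genes lie near 0.

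Some markers of other cell types moved with the members. Of 10 fibroblast markers, 4 could be tested in Hmgn1-/- and in Hmgn2-/- mESCs and 5 in the double knockout, and 3, 3 and 4 of them were lower (Col1a1, Col1a2 and Thy1, with Twist2 in the double knockout), with a median log2 FC of −1.71, −1.56 and −1.81. The Twist2 call was lost by DESeq2 (−2.82) and without WT replicate 2 or 3 or double knockout replicate 2 or 3 (−2.64 to −2.23). Their summed level was 21.7, 18.3 and 22.8 CPM in WT mESCs, 7.06, 5.92 and 6.79 CPM in Hmgn1-/- mESCs, 6.45, 7.27 and 7.02 CPM in Hmgn2-/- mESCs, and 6.11, 8.99 and 7.70 CPM in the double knockout. Thy1, the most abundant of them in every library, made up a large part of these sums, and Lum was at 0 in every library. Of 8 trophoblast markers, 7 could be tested and 4 were lower in each knockout (Krt8, Krt18, Krt7 and Hand1), with a median of −2.51, −1.93 and −2.11. Their summed level was 337, 385 and 526 CPM in WT mESCs, 83.8, 81.8 and 111 CPM in Hmgn1-/- mESCs, 115, 117 and 155 CPM in Hmgn2-/- mESCs, and 94.8, 108 and 121 CPM in the double knockout. Krt8 was the most abundant in 10 of the 12 libraries and Tfap2c in Hmgn1-/- replicates 1 and 2, and Elf5 averaged at most 0.170 CPM in a genotype. The transcription factors Cdx2, Eomes and Tfap2c were tested and did not pass in any knockout. Tfap2c had 31.0, 32.3 and 32.9 CPM in WT mESCs and 24.9 to 35.3 CPM in the knockout libraries. Cdx2 had 0.813, 1.30 and 1.11 CPM against 0.537 to 1.25 CPM, and Eomes 9.63, 9.78 and 9.93 CPM against 5.34 to 7.90 CPM. Replicate 3 had the highest sum of each genotype, as it had for most members. The part of fibroblast-like or trophoblast-like cells in the lower levels of the members was not tested.

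Most primitive endoderm markers went the other way. Of 10 markers, 7, 7 and 9 were higher in Hmgn1-/-, Hmgn2-/- and double knockout mESCs, with a median log2 FC of 2.50, 2.82 and 3.84. Their summed level was 102, 128 and 118 CPM in WT mESCs, 220, 177 and 180 CPM in Hmgn1-/- mESCs, 286, 238 and 171 CPM in Hmgn2-/- mESCs, and 486, 470 and 438 CPM in the double knockout, with no marker at 0. Lrp2 was the most abundant in every library and did not pass the threshold in any knockout. The part of primitive endoderm-like cells in the result was not tested either. Of the 8 mESC markers, 0 passed in any knockout by edgeR or DESeq2, with 4, 3 and 4 at an unadjusted p under 0.05, a median of 0.06, −0.02 and −0.08 and a summed level of 4744 to 5783 CPM in the 12 libraries. Klf4 had a log2 FC of 0.93, 0.69 and 0.74 (edgeR, adjusted p = 1.94e-06, 0.000899 and 5.7e-06) and Nanog of −0.32, −0.50 and −0.45 (adjusted p = 0.0014, 0.00152 and 0.000195), all under the fold limit. Without WT replicate 1, Klf4 passed in Hmgn1-/- mESCs, at a log2 FC of 1.01.

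Markers of other muscle and of mural cells were also counted. Of 3 tested pericyte and vascular mural markers out of 6, 0 passed in any knockout by edgeR or DESeq2, 3, 1 and 3 had an unadjusted p under 0.05, and the median was 0.28, 0.12 and 0.31. These genes went both ways: Notch3, a receptor of mural cells, had a log2 FC of −0.78, −0.66 and −0.69 (edgeR, adjusted p = 0.000136, 0.00786 and 1.63e-05), under the fold limit, and Mcam, an adhesion molecule, had 0.28, 0.12 and 0.31. Notch3 was the most abundant of the list in WT mESCs, at 71.3 CPM, and Mcam in the knockouts. Of 7 tested cardiac markers, Myh7 was lower in Hmgn1-/- mESCs and in the double knockout and 0 passed in Hmgn2-/- mESCs by edgeR or DESeq2 (2 at an unadjusted p under 0.05), with a median of −0.15, −0.08 and −0.03. The Myh7 call was lost in Hmgn1-/- mESCs without WT replicate 2 or Hmgn1-/- replicate 2 or 3 (−1.74 to −1.42), and in the double knockout by DESeq2 (−1.30) or without WT replicate 2 or 3 or any replicate of the double knockout (−1.35 to −1.10). Myh7 passed in Hmgn2-/- mESCs with all libraries in a single fit (−1.32). Of 4 tested skeletal markers, Tnnt3 was lower in Hmgn1-/- mESCs and in the double knockout and 0 passed in Hmgn2-/- mESCs by edgeR or DESeq2 (2 at an unadjusted p under 0.05), with a median of −0.60, −0.42 and −1.02. The Tnnt3 call was lost in Hmgn1-/- mESCs without WT replicate 3 or Hmgn1-/- replicate 1 or 2 (−2.57 to −2.13), and in the double knockout without WT replicate 3 or double knockout replicate 1 or 2 (−2.19 to −1.65). Tnnt3 passed in Hmgn2-/- mESCs without WT replicate 1 (−1.92) and with no filter on low counts (−1.63), and Myh3 in Hmgn1-/- mESCs without Hmgn1-/- replicate 1 (−1.02). Myod1, Myog and Myf5, the regulators of skeletal muscle, averaged 0 to 0.153 CPM in a genotype, and Mylpf made up most of the skeletal sum, at 88.9 to 152 CPM.

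The genes next to the members on the chromosome were compared as well. Of the 18 tested nearest neighbours, a gene on each side of each member, 0 passed the threshold in any of the 3 comparisons with WT mESCs by edgeR or DESeq2, 6, 6 and 5 had an unadjusted p under 0.05, and their log2 FC ran from −0.17 to 0.62 in Hmgn1-/- mESCs, −0.16 to 0.58 in Hmgn2-/- mESCs and −0.15 to 0.58 in the double knockout. Stambpl1, whose annotated end lies 3 bases from Acta2, had the highest values, 0.62, 0.58 and 0.58. The median of the neighbours was 0.12, 0.17 and 0.08. The share of all genes at an unadjusted p under 0.05 in either direction was not counted, so the 6, 6 and 5 neighbours stand without a comparison. The members lie on 7 chromosomes, with Tagln, Cnn1 and Tpm1 on chromosome 9.

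Across the 12 libraries, genes most like Acta2 included Ccdc60 (Pearson r = 0.980), Tagln (0.980), Arl4c (0.975) and Tpm1 (0.973), among 11554 genes averaging 50 counts or more, on the scale log2(CPM + 1). Those most like Tagln included Anxa6 (r = 0.987), Acta1 (0.985), Anxa1 (0.984) and Arl4c (0.983). These values describe 12 libraries in 4 genotypes and rest mostly on the gap between WT and knockout libraries. Anxa1, an annexin that binds membranes, had 17.4, 2.61, 4.42 and 2.44 CPM in WT, Hmgn1-/-, Hmgn2-/- and double knockout mESCs. Among the members, Acta1 and Tpm1 were within the 10 genes most like both, whereas Cnn1 was at place 168 for Acta2 and 348 for Tagln.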

How the data were processed

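RNA-Seq counts of 12 libraries, 3 per genotype, were used as the authors deposited them: whole-number counts per gene, without normalization. By the methods of the study, reads of poly-A enriched RNA were aligned with STAR to mm10, and the submitters' processing notes name STAR, mm10 and DESeq2. The counting program, the annotation and whether the strand was used are not given in the sources used here.

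Tests were run in R 4.3.3. Each pair of genotypes was compared in a fit of its 6 libraries with edgeR 4.0.16 and limma 3.58.1 (TMM scaling with factors of 0.970 to 1.02, the default filter on low counts, quasi-likelihood test), and p-values were adjusted by Benjamini-Hochberg over all genes tested. The difference of differences was a contrast in a fit of all 12 libraries. The threshold was a log2 FC of at least 1 in size together with an adjusted p under 0.01. SEs were derived from the log2 FC and the F statistic. Library totals ran from 17337908 to 31448468 counts, and a count of 3 was taken as the floor.

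Levels per kb used the summed exon length of GENCODE vM21, found for 21777 of the 23412 genes, on GRCm38, the same build as mm10. Promoters came from a RefSeq table of GRCm38.p6, and neighbours from a RefSeq gene table.

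Genes named are the members, Hmgn1 and Hmgn2, genes of 11 lists (other smooth muscle contractile genes, cytoplasmic actin and non-muscle contractile genes, SRF and its cofactors, other MRTF/SRF targets, and markers of mESCs, fibroblasts, pericytes and vascular mural cells, cardiac muscle, skeletal muscle, primitive endoderm and trophoblast), the nearest tested genes on each side, and genes among the 5 most like Acta2 and Tagln. Some items are not reported here. Pcsk7 was added after the overlap with Tagln was seen. Members and lists were chosen with earlier results of these data known.

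Alternatives were DESeq2 1.42.0, RLE scaling, no filter on low counts, all libraries in a single fit, no fold limit, the replicate number as a block, each replicate left out in turn, and library totals in place of TMM scaling. The steps were tested on simulated data. No pair of replicates was alike within sampling noise, with a chi-square per degree of freedom of 3.28 to 34.3.

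Same-numbered libraries of different genotypes were checked for shared deviations from their genotype means. All pairs of the same number had a correlation over 0.1 for Hmgn1-/- against WT, the double knockout against WT, the double knockout against Hmgn2-/-, and Hmgn2-/- against Hmgn1-/- mESCs, and the pairing is inferred from the data alone.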

Additional observations from a re-analysis of the deposited data

Results flagged for a closer look

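For 4 members the log2 FC with Hmgn1 loss differed between backgrounds by a test of the difference itself. The limit was an adjusted p under 0.01 at any fold, reached with a positive difference by 4.13% of all genes. A gene about equally low in all 3 knockouts is positive in this test. With 1 clone per knockout, an effect of the background and a difference between clones cannot be told apart. The log2 FC with loss of Hmgn1 was higher, that is a smaller fall, in the Hmgn2-/- background than in WT mESCs by 1.498 for Tagln, 2.59 for Acta1, 1.44 for Cnn1 and 0.88 for Tpm1 (edgeR, adjusted p = 0.0019, 0.00325, 0.009 and 2.74e-05, over 14323 genes). The Tpm1 difference was under the fold limit, and the calls of Acta1 and Cnn1 were lost when single libraries were left out, as given with those values. Markers of other cell types differed the same way in this test, with 4 of 7 trophoblast markers (Krt8 at 2.71) and 3 of 4 fibroblast markers (Thy1 at 1.94) past the threshold and positive, as were Cald1 (2.13), Csrp1 (1.38) and Fhl1 (1.35), against 2.98% of all genes. The fibroblast calls of Col1a1 (1.26 to 1.65) and Col1a2 (2.91 to 3.29) were lost without single libraries of each genotype, and 6 of 10 primitive endoderm markers passed with a negative difference, of which Gata6 (−1.34 to −1.14) lost its call likewise. Their part in the differences of the members was not tested.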

How the results depend on the processing

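Of 96 values of the member counts under another setting, 91 were within 1.5 times the count reported, and of 712 values of member log2 FC, 688 kept their direction and their side of the threshold, 15 fell short of it, 3 passed it and 6 reversed. The counts of members past the threshold were the same with DESeq2, RLE scaling, no filter, a single fit and the replicate block (6, 5 and 6 against WT mESCs, 0 between knockouts and 3 for the difference of differences). Without a fold limit they were 8, 7, 8, 0, 0, 0 and 4. When single libraries were left out, 4 to 6 members passed in Hmgn2-/- mESCs and 1 to 3 in the difference of differences. All 36 levels moved by less than the spread between replicates with library totals.

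Without replicate 3 of every genotype, chosen after seeing the data, the log2 FC of Acta1 in the double knockout against Hmgn1-/- mESCs turned to 0.14 and that of Tpm2 to 0.0123. With single libraries left out, the same comparison ran from −0.53 to 0.36 for Acta1 (highest without Hmgn1-/- replicate 3) and from −0.0397 to 0.0254 for Tpm2 (above 0 without Hmgn1-/- replicate 3 or double knockout replicate 2). Cnn2 in Hmgn2-/- against Hmgn1-/- mESCs ran from −0.29 to 0.0280 (above 0 without Hmgn1-/- replicate 3). None of these values was past the threshold in any setting, and the cause was not tested. The settings were also applied to the gene lists, a choice made after seeing the data. Without replicate 3 of every genotype, the calls lost among genes of the lists reported were those of Lmod1, Myh7 and Tnnt3 in Hmgn1-/- mESCs, Egr1 and Fos in Hmgn2-/- mESCs, and Lmod1, Fhl2, Col1a2, Twist2, Myh7 and Tnnt3 in the double knockout, at a log2 FC of −2.69 to −0.96, and in the difference of differences Col1a1 (1.47), Col1a2 (3.24) and Hand1 (2.07).

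Over all genes, the double knockout against Hmgn2-/- mESCs had 6 genes past the threshold, 29 with DESeq2, 21 with no filter, 18 in the single fit, 32 with the replicate block and 1 to 12 with a library left out. Without a fold limit the 7 comparisons had 2412, 1400, 2544, 6, 150, 48 and 905 genes, against 832, 724, 890, 6, 70, 24 and 499. The difference of differences had 307 without replicate 3. The replicate numbers did not pair the libraries of Hmgn2-/- and WT mESCs or of the double knockout and Hmgn1-/- mESCs by the limit used, with correlations as low as 0.0791 and 0.0798, yet 35 of 36 comparisons were highest for the own number, a hint from the data and not the design. The replicate block changed no member's call, and among list genes those of Fos and Fhl2 in Hmgn2-/- mESCs and of Fhl2 in the difference of differences. Depth limits Actg2 and the double knockout values of Acta2, at 0 to 14 counts a library.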
